A study of Mus musculus with 6 samples.

Results

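The 28 genes described here encode the enzymes that make cholesterol and fatty acids, together with 4 genes that control their synthesis or move sterol. They were chosen by name, and all 28 were found by symbol among the 32973 genes of the deposited table. By role, 17 are enzymes of the sterol branch, 7 are enzymes of fatty acid synthesis, and Srebf1, Srebf2, Insig1 and Stard4 are regulators and a sterol carrier. Expression was measured by RNA-seq in primary mouse muscle stem cells, sorted by flow cytometry from skeletal muscle and grown for 3 days on collagen in F10 medium with 20% fetal bovine serum and 5 ng/ml basic fibroblast growth factor. Knockout cells (Med23KO, 3 libraries) had the genotype Med23flox/flox::Pax7CreERT2, in which a Pax7-driven, tamoxifen-inducible Cre recombinase acts on floxed Med23 alleles. Control cells (Ctrl, 3 libraries) were Med23flox/flox, so both groups carried the floxed alleles and the knockout cells alone carried Cre. An effect of Cre itself and an effect of losing Med23 therefore cannot be told apart. The labels give no age of the animals and do not say whether each library is an animal or culture of its own. The p-values below therefore set each difference between genotypes against the spread of these libraries, and that spread may be technical.

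Cholesterol is built from acetyl-CoA through mevalonate, isoprenoid diphosphates, squalene and lanosterol. Fatty acids are built from the same precursor by carboxylation to malonyl-CoA, chain assembly, elongation and desaturation. The SREBP transcription factors activate both branches: SREBP2, from Srebf2, is known chiefly for sterol genes and SREBP1, from Srebf1, chiefly for fatty acid genes. They are held in the endoplasmic reticulum by INSIG proteins when sterol is plentiful. Med23 encodes a subunit of Mediator, which links transcription factors to RNA polymerase II, and dividing myoblasts need both lipids for membranes.

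All values are FPKM (fragments set per kilobase of transcript and per sequenced library), which can be compared between genes because they are set per length. Fold changes are Med23KO minus Ctrl on the log2(FPKM + 1) scale, which understates changes of low genes. The read depth of the libraries is unknown. Between 17681 and 17924 genes were above 0 in Med23KO libraries, and between 17259 and 17424 in Ctrl libraries. Med23KO replicate 3 stood somewhat apart: its median over the 12336 tested genes lay 0.10 (log2) below the Ctrl mean, whereas the other 5 libraries lay between -0.04 and 0.03. Med23 itself had 5.10, 5.86 and 4.23 FPKM in Med23KO replicates 1, 2 and 3, against 10.4, 11.7 and 10.2 FPKM in Ctrl replicates 1, 2 and 3 (limma adjusted p = 0.0197). The short RNA Rmrp took 173041 to 205244 FPKM in Med23KO libraries and 225416 to 239590 FPKM in Ctrl libraries, and its part in the scaling was not tested. The 8 satellite cell markers read (Pax7, Myf5, Myod1, Vcam1, Itga7, Cdh15, Des and Sdc4) were present in every library, and their sum was 1090 to 1870 FPKM in Med23KO and 1260 to 1960 FPKM in Ctrl. The largest part of this sum was Myod1, with 551 to 964 FPKM in Med23KO and 702 to 1170 FPKM in Ctrl. Of the 8 markers, 0 passed the limma test and 2 had an unadjusted p under 0.05 (1 higher, 1 lower), against 19.7% of all tested genes. The authors' deposited table called Cdh15 and Des higher and Itga7 lower, against 15.7% of the genes it tested. The mean of Itga7 was 59.0% of that in Ctrl, with no overlap (limma adjusted p = 0.0515), and that of Cdh15 was 175% (limma adjusted p = 0.168). The leukocyte marker Ptprc did not exceed 0.0896 FPKM in any library.

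The sterol branch was nearly level between genotypes, and the fatty acid branch lay slightly lower in Med23KO cells, with Acaca farthest down. The median log2 fold change was 0.01 over the 17 sterol enzymes, with 10 above and 7 below 0. It was -0.15 over the 7 fatty acid enzymes, with 1 above and 6 below 0. Over all tested genes the median was -0.03, with 45.1% above 0. All 28 genes passed the filter of a mean of at least 1 FPKM, and 0 of 28 passed the test in either direction (limma, Benjamini-Hochberg adjusted p under 0.05), where 2.91% of all tested genes did. At an unadjusted p under 0.05 there were 2, Acaca and Acly, both lower, against 19.7% of all tested genes. In the authors' deposited table, Cuffdiff called 1 of the 28, Acaca, and 15.7% of the genes it tested (8.61% higher, 7.04% lower). The libraries of the genotypes did not overlap in 3 of the 28 (Acaca and Acly lower, Insig1 higher), against 24.7% of all tested genes.

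**Figure D1:**
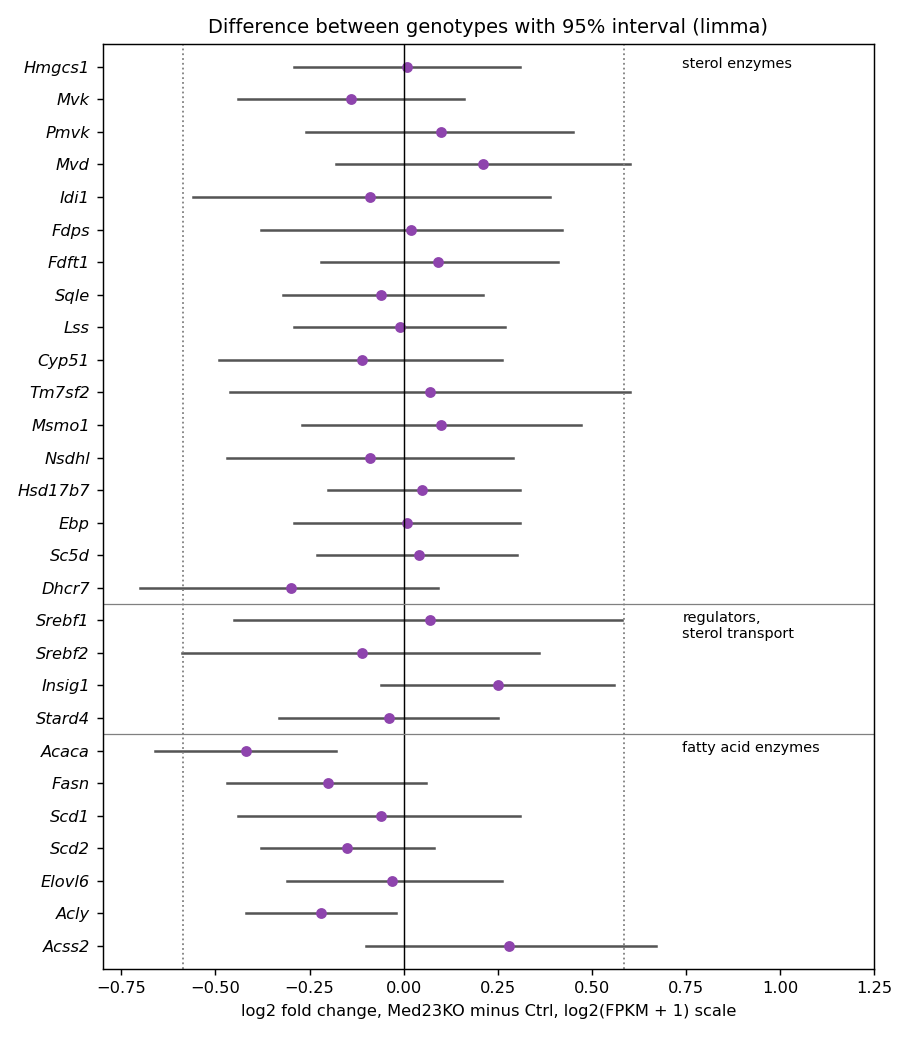
Log2 fold change (Med23KO minus Ctrl, log2(FPKM + 1) scale, horizontal axis) of each of the 28 genes, with its 95% interval from limma (n = 3 libraries per genotype). Dotted lines mark 1.5-fold in either direction; among the intervals, those of Acaca and Acly alone lie wholly on one side of 0.

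The intervals describe how closely these libraries place each difference, gene by gene and without adjustment over the tested genes. Should the spread be technical, they would not bound a difference between genotypes. The 95% intervals of the 28 genes had a median half-width of 0.31 (log2). For 22 of the 28 genes (78.6%) the whole interval lay within 1.5-fold in both directions, as it did for 60.3% of all tested genes. In the sterol branch this held for 14 of 17, the exceptions being Mvd, Tm7sf2 and Dhcr7. Apart from those of Acaca and Acly, the intervals included 0, so 3 libraries a group could not tell 0 from a small change.

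The contrast of the branches, 0.15 between their median log2 fold changes, was of the order of the spread between libraries. Relative to the Ctrl mean, the median of the sterol enzymes was -0.06, 0.08 and 0.02 (log2) in Med23KO replicates 1, 2 and 3, and -0.07, 0.10 and -0.05 in Ctrl replicates 1, 2 and 3, so the groups overlapped. The median of the fatty acid enzymes was -0.11, -0.08 and -0.25 in Med23KO replicates 1, 2 and 3, and 0.03, -0.05 and -0.07 in Ctrl replicates 1, 2 and 3. Each Med23KO library thus lay below each Ctrl library, but Med23KO replicate 2 (-0.08) and Ctrl replicate 3 (-0.07) nearly met. The SD between replicates was 0.075 for this median. The sterol median minus the fatty acid median was 0.06, 0.16 and 0.27 in Med23KO libraries and -0.10, 0.15 and 0.02 in Ctrl libraries. These overlap, and the SD between replicates was 0.117. No test was run on the branch medians. Without Med23KO replicate 3 the log2 fold change medians were -0.03 for the sterol enzymes and -0.10 for the fatty acid enzymes.

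The summed level of the 7 fatty acid enzymes was 122, 123 and 111 FPKM in Med23KO libraries, against 142, 138 and 127 FPKM in Ctrl libraries. The sum of the 17 sterol enzymes was 122, 136 and 131 FPKM in Med23KO libraries, against 118, 142 and 131 FPKM in Ctrl libraries. The fatty acid sums did not overlap, while those of the sterol enzymes did. The sums over all tested genes did not overlap either. They were 660000, 673000 and 598000 FPKM in Med23KO libraries, against 745000, 716000 and 697000 FPKM in Ctrl libraries. These sums include Rmrp, with 173041 to 205244 FPKM in Med23KO libraries and 225416 to 239590 FPKM in Ctrl libraries. They therefore do not show whether the lower fatty acid sums are particular to these enzymes, which was not tested.

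The promoters of genes from both branches are shown because SREBPs bind DNA together with the CCAAT-binding factor NF-Y. RefSeq promoter windows of GRCm38.p6, from 250 bases before to 50 after a start, were found for 22 of the 28 genes. CCAAT, searched on both strands, was present in a window of 14 of 14 sterol enzymes, 3 of 5 fatty acid enzymes and 3 of 3 of the regulators with a window, against 41.1% of all genes with a window. The core TCACNCCAC, modelled on the classical sterol regulatory element and also searched on both strands, was in the window of Hmgcs1 and of no other of the 22, against 1.4% of all genes. A match is a description of the letters and not a site, and other forms of the element were not searched. The sequences below run 5′ to 3′ on the gene's strand, with each match in capitals (ATTGG is CCAAT on the other strand). In Fasn a CCAAT and an ATTGG overlap, and the core shares no base with a CCAAT. The Acaca window (chr11:84195188-84195487, plus strand), which lies inside the gene and not at its first annotated start, held no match. The others are those of Fasn (chr11:120824498-120824797, minus strand), Acly (chr11:100527951-100528250, minus strand) and Hmgcs1 (chr13:119690101-119690400, plus strand).
Acaca: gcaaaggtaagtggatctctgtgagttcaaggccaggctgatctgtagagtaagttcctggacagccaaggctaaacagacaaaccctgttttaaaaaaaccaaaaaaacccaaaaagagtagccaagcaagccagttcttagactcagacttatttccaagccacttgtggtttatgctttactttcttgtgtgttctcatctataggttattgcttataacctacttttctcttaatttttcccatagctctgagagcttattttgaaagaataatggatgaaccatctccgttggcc
Fasn: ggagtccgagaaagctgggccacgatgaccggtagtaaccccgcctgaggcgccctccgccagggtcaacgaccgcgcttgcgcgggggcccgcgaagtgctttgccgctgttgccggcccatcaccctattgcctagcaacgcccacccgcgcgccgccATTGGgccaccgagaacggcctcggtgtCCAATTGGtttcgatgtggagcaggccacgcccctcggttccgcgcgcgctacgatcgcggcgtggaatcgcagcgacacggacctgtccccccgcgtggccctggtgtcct
Acly: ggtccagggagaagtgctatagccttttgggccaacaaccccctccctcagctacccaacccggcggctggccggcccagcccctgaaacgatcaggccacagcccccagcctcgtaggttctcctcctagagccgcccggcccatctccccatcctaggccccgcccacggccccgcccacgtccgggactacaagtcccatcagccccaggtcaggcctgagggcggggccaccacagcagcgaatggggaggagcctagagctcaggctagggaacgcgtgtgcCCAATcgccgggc
Hmgcs1: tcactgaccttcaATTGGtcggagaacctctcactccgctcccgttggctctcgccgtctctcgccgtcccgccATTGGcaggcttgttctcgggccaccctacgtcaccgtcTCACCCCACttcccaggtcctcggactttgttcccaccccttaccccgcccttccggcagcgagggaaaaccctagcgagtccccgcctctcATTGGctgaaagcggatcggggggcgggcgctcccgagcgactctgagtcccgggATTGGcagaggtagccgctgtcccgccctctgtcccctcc

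In the fatty acid branch, Acaca, acetyl-CoA carboxylase alpha, makes malonyl-CoA in the committed step (mm10 chromosome 11, plus strand, from 84129672 to 84401651). Its level was 10.0, 11.1 and 11.9 FPKM in Med23KO replicates 1, 2 and 3, against 15.4, 14.5 and 15.3 FPKM in Ctrl replicates 1, 2 and 3. Each Med23KO library lay below each Ctrl library, which held for 14.7% of all tested genes. The mean was 11.0 ± 0.940 FPKM in Med23KO cells and 15.1 ± 0.478 FPKM in Ctrl cells (SD, n = 3 each), 73.0% of that in Ctrl. This is a log2 fold change of -0.42 (SE 0.103, 95% interval -0.66 to -0.18), with a limma adjusted p of 0.0750 that missed the threshold. Without Med23KO replicate 3 it was -0.48 and past the threshold (limma adjusted p = 0.0379), in a fit that called 9.27% of all tested genes. With library weights it also passed (limma adjusted p = 0.0228), where 13.8% of all tested genes did. Over the other libraries left out, the limma adjusted p ran up to 0.268. The authors' deposited table gave Acaca a Cuffdiff q of 0.00243 and called it lower.

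Acly, the ATP-citrate lyase that makes cytosolic acetyl-CoA for both branches (chromosome 11, positions 100476353 to 100528000, minus strand), varied little within a genotype. It had 23.6, 23.8 and 22.5 FPKM in Med23KO libraries, against 26.4, 28.2 and 27.4 FPKM in Ctrl libraries. The groups did not overlap, and the Med23KO mean was 85.3% of that in Ctrl. The difference was -0.22 on the log2 scale (SE 0.0873) and did not pass (limma adjusted p = 0.220). Fasn, the fatty acid synthase that assembles palmitate from malonyl-CoA (chromosome 11, positions 120805846 to 120824547, minus strand), had 32.3, 31.5 and 27.3 FPKM in Med23KO libraries and 37.9, 36.2 and 31.3 FPKM in Ctrl libraries. Med23KO replicates 1 and 2 lay just above Ctrl replicate 3, so the groups overlapped. The log2 fold change was -0.20 (95% interval -0.47 to 0.06, limma adjusted p = 0.385), and without Med23KO replicate 3 it was -0.13.

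The desaturases Scd1 and Scd2, which put the double bond into stearate and palmitate, are paralogs of unequal level. Scd2 had 35.9, 37.0 and 33.1 FPKM in Med23KO libraries and 39.7, 41.9 and 36.1 FPKM in Ctrl libraries. Scd1 had 13.1, 12.5 and 10.4 FPKM in Med23KO libraries and 15.7, 11.5 and 10.9 FPKM in Ctrl libraries. The level of Scd2 was thus 2.96 ± 0.226 times that of Scd1 in Med23KO cells and 3.16 ± 0.572 times in Ctrl cells (SD, n = 3 each). The log2 fold changes were -0.15 (95% interval -0.38 to 0.08) for Scd2 and -0.06 (-0.44 to 0.31) for Scd1. Both genes are close paralogs, so that the split of reads between them is uncertain.

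Elovl6, which elongates palmitate to stearate, had 5.05, 4.72 and 4.03 FPKM in Med23KO libraries and 4.71, 4.42 and 4.97 FPKM in Ctrl libraries, and the groups overlapped. Acss2, which makes acetyl-CoA from acetate, was the single fatty acid enzyme with a positive difference. It had 2.08, 2.30 and 1.45 FPKM in Med23KO libraries and 1.65, 1.29 and 1.28 FPKM in Ctrl libraries, a log2 fold change of 0.28 (95% interval -0.10 to 0.67, limma adjusted p = 0.404). Med23KO replicate 3 lay within the Ctrl range. Of the enzymes that supply acetyl-CoA, Acly was 12.4 ± 2.79 times as high as Acss2 in Med23KO cells and 19.8 ± 3.26 times as high in Ctrl cells (SD, n = 3 each); the ratios, 10.3 to 15.6 and 16.0 to 21.9, did not overlap and were not tested. Acss2 overlaps Ggt7 and Gss on the other strand, and whether reads were counted by strand is not given in the sources used here.

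**Figure D2:**
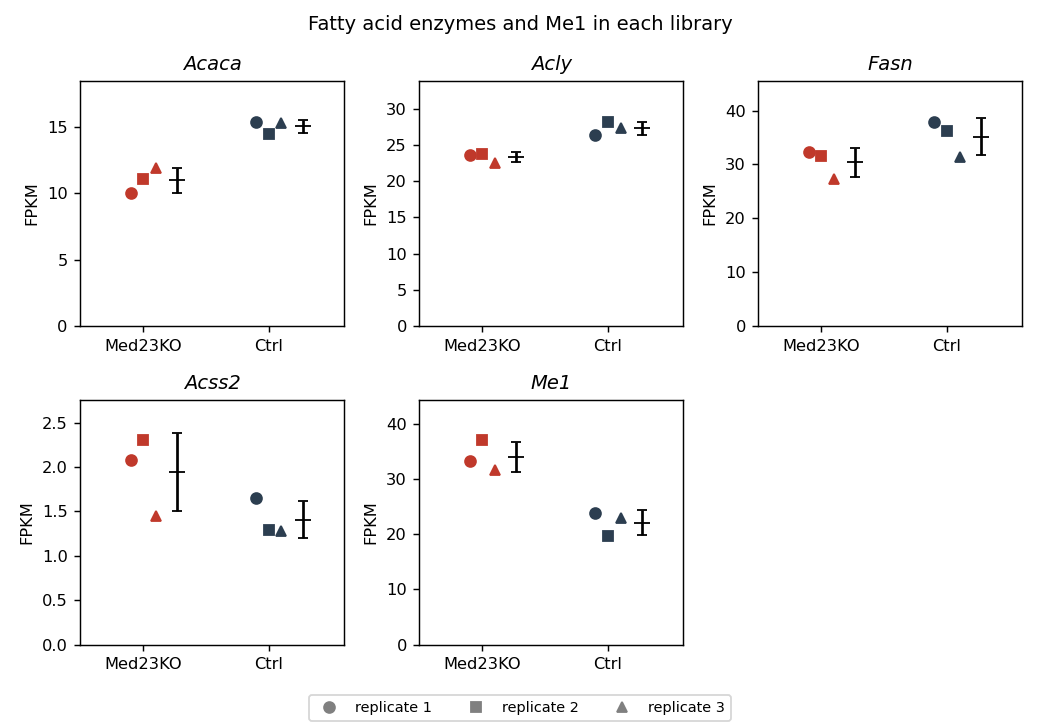
FPKM of 4 fatty acid enzymes and of the related gene Me1 in each library (vertical axes start at 0), with the mean and SD of each genotype (n = 3) beside the points. Acaca and Acly lie lower in each Med23KO library than in each Ctrl library, and Me1 higher; Fasn and Acss2 overlap.

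Among the mevalonate enzymes, Hmgcs1, which makes HMG-CoA, had 15.2, 16.5 and 18.9 FPKM in Med23KO libraries and 14.5, 18.2 and 17.6 FPKM in Ctrl libraries. Its log2 fold change was 0.01 (95% interval -0.29 to 0.31). Mvk, mevalonate kinase, and Pmvk, phosphomevalonate kinase, had means of 3.66 ± 0.525 and 3.93 ± 0.660 FPKM in Med23KO cells and of 4.10 ± 0.167 and 3.61 ± 0.567 FPKM in Ctrl cells (SD, n = 3 each). Mvd, which decarboxylates the diphosphate, had 6.66, 4.65 and 4.33 FPKM in Med23KO libraries and 4.86, 4.12 and 3.95 FPKM in Ctrl libraries, the largest positive difference of the sterol branch at 0.21 (95% interval -0.18 to 0.60). Without Med23KO replicate 1 it was 0.05. Idi1, the isopentenyl diphosphate isomerase, had 2.91, 3.78 and 3.78 FPKM in Med23KO libraries and 2.58, 4.88 and 4.08 FPKM in Ctrl libraries. Fdps, which makes farnesyl diphosphate, was the highest of the sterol enzymes, with 17.2, 23.2 and 22.3 FPKM in Med23KO libraries and 16.4, 24.1 and 21.5 FPKM in Ctrl libraries. The groups overlapped for each of these 6 genes.

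Of the squalene and lanosterol enzymes, Sqle, the squalene epoxidase, had 16.7, 18.9 and 14.6 FPKM in Med23KO libraries and 17.0, 17.1 and 17.9 FPKM in Ctrl libraries. Fdft1, squalene synthase, averaged 5.25 ± 0.565 FPKM in Med23KO cells and 4.87 ± 0.678 FPKM in Ctrl cells, and Lss, which closes the ring to lanosterol, 3.03 ± 0.0844 FPKM in Med23KO cells and 3.07 ± 0.257 FPKM in Ctrl cells (SD, n = 3 each). The demethylating enzymes Cyp51, Msmo1 and Nsdhl had log2 fold changes of -0.11, 0.10 and -0.09. For Cyp51 the values were 6.38, 7.97 and 9.19 FPKM in Med23KO libraries and 7.20, 8.89 and 9.56 FPKM in Ctrl libraries. The spread within a genotype exceeded the difference between genotypes for each of these genes. Cyp51 overlaps Akap9, and Fdft1 overlaps Ctsb, on the other strand.

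The late steps were as level, apart from Dhcr7. Tm7sf2, a sterol C14 reductase, was the lowest of the 28 genes, with 1.07, 1.23 and 1.10 FPKM in Med23KO libraries and 0.636, 1.86 and 0.792 FPKM in Ctrl libraries. The 3-ketosteroid reductase gene Hsd17b7, the sterol isomerase gene Ebp and the sterol C5 desaturase gene Sc5d had log2 fold changes of 0.05, 0.01 and 0.04. Dhcr7, which reduces 7-dehydrocholesterol to cholesterol, had 4.95, 4.29 and 3.34 FPKM in Med23KO libraries and 6.27, 5.53 and 4.42 FPKM in Ctrl libraries. Its log2 fold change of -0.30 (95% interval -0.70 to 0.09, limma adjusted p = 0.377) was the largest in size of the sterol branch. The groups overlapped at Ctrl replicate 3.

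**Figure D3:**
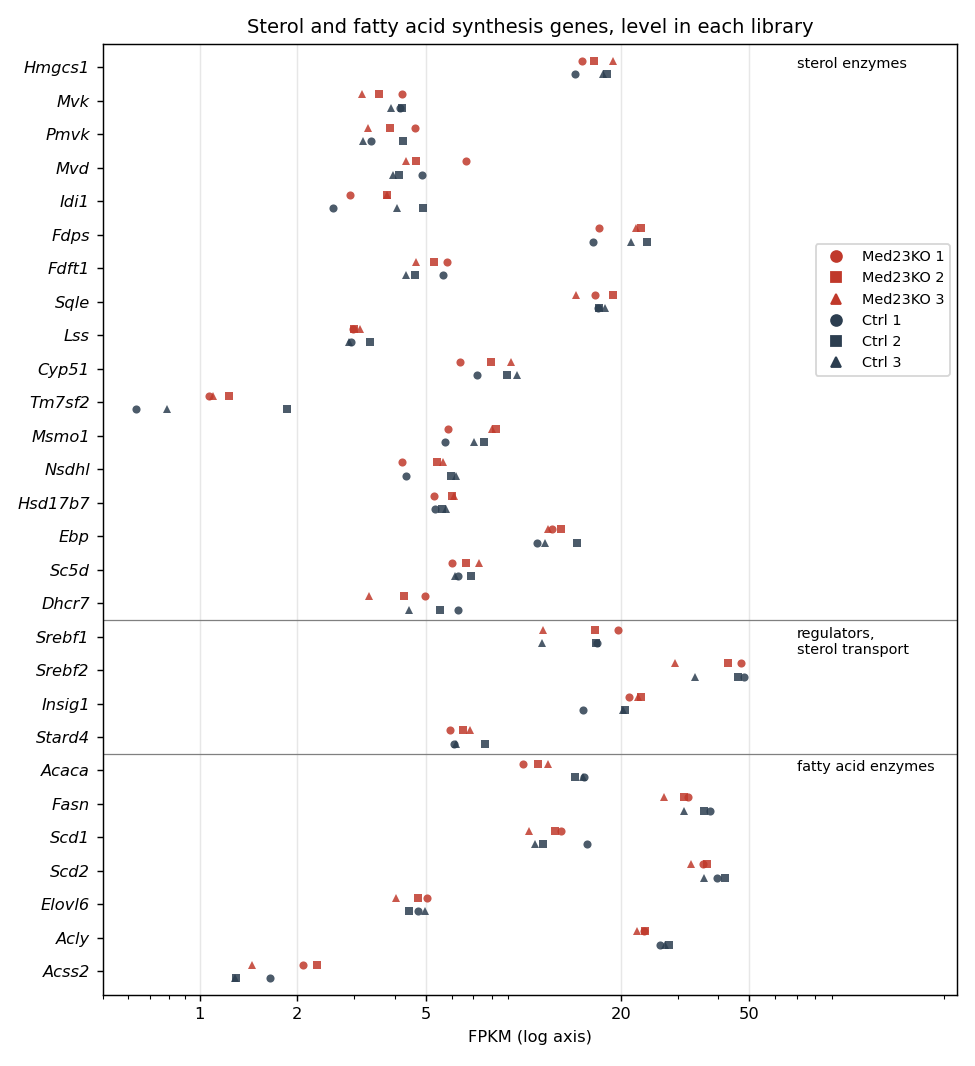
FPKM of the 28 genes in each library (log axis), Med23KO in red above Ctrl in dark blue, with a marker shape for each replicate number. The lowest gene is Tm7sf2, with a mean of 1.12 FPKM over the 6 libraries, and the highest is Srebf2, with 41.3 FPKM; Acaca, Acly and Insig1 are those whose groups do not overlap.

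The regulators showed no called difference. Srebf2 was the highest of the 28 genes and had 47.1, 43.0 and 29.4 FPKM in Med23KO libraries, against 48.2, 46.2 and 33.9 FPKM in Ctrl libraries (log2 fold change -0.11, 95% interval -0.59 to 0.36). Srebf1 had 19.6, 16.7 and 11.5 FPKM in Med23KO libraries, against 16.9, 16.8 and 11.4 FPKM in Ctrl libraries (log2 fold change 0.07, 95% interval -0.45 to 0.58). In both genes replicate 3 of each genotype was the lowest library. The level of Srebf2 was 2.40, 2.57 and 2.57 times that of Srebf1 in Med23KO libraries and 2.86, 2.75 and 2.97 times in Ctrl libraries. These ratios varied far less than either gene and did not overlap between genotypes; they were not tested.

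Insig1, whose product retains the SREBPs and which is itself a known SREBP target, had 21.2, 23.2 and 22.7 FPKM in Med23KO libraries, against 15.3, 20.6 and 20.4 FPKM in Ctrl libraries. Each Med23KO library lay above each Ctrl library, as in 10% of all tested genes. Its log2 fold change of 0.25 (95% interval -0.06 to 0.56) did not pass (limma adjusted p = 0.353) and was 0.12 without Ctrl replicate 1, the lowest library. Stard4, which carries cholesterol between membranes, had 5.93, 6.52 and 6.83 FPKM in Med23KO libraries and 6.10, 7.63 and 6.21 FPKM in Ctrl libraries, and the groups overlapped.

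Libraries of a genotype also differed among themselves, and the order of the libraries often recurred by replicate number in both genotypes. In 8 of the 17 sterol enzymes (Hmgcs1, Idi1, Fdps, Cyp51, Tm7sf2, Msmo1, Nsdhl and Hsd17b7) replicate 1 was the lowest library of both genotypes, as it was in 20.2% of all tested genes. This held for 0 of the 7 fatty acid enzymes. Replicate 2 was the lowest library of both genotypes in 0 of the 28 genes, against 4.48% of all tested genes. In 4 fatty acid enzymes (Fasn, Scd1, Scd2 and Acss2), in Srebf1 and Srebf2 and in 5 sterol enzymes (Mvk, Pmvk, Mvd, Fdft1 and Dhcr7) replicate 3 was the lowest of both, as in 39.7% of all tested genes. The labels do not say what a replicate number stands for, and these counts are a description.

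**Figure D4:**
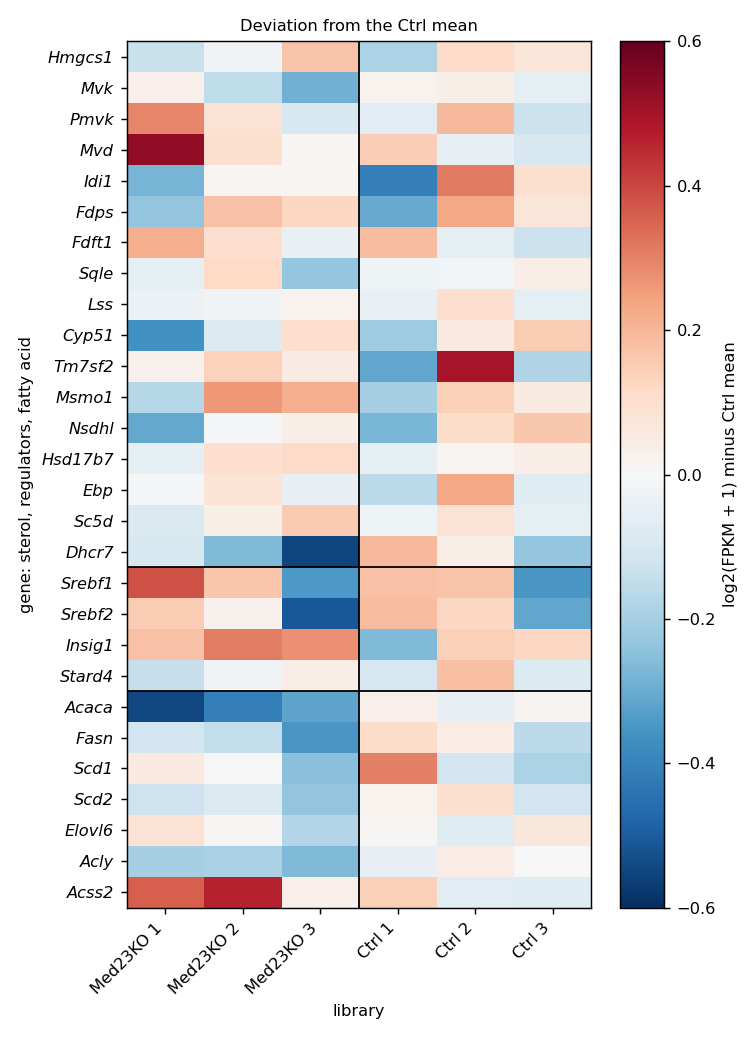
Difference of log2(FPKM + 1) from the Ctrl mean for each of the 28 genes (rows, in the order sterol enzymes, regulators and transport, fatty acid enzymes) in each library (columns); red is above and blue below the Ctrl mean. Acaca is below it in all 3 Med23KO libraries, while Fdps, Idi1, Cyp51, Msmo1 and Nsdhl are lowest in replicate 1 of both genotypes and Srebf1 and Srebf2 in replicate 3 of both.

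Other genes of these pathways were read from lists of the same kind. Scap, the SREBP escort, had 26.2, 23.1 and 16.6 FPKM in Med23KO libraries and 29.2, 28.7 and 21.1 FPKM in Ctrl libraries. The groups overlapped, and like Srebf1 and Srebf2 it was lowest in replicate 3 of both genotypes.

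Of 21 further genes of fatty acid synthesis, elongation and desaturation, 15 were tested; 1 rose (1.49% of all tested genes rose) and 0 fell (1.42% fell), with a list median of -0.03. At an unadjusted p under 0.05, 3 were higher and 1 lower, against 19.7% of all tested genes in either direction. The authors' deposited table called 3, all higher (Me1, Acacb and Fads3), against 15.7% of the genes it tested (8.61% higher, 7.04% lower). The one that rose was Me1, the malic enzyme that yields NADPH for lipid synthesis (chromosome 9, positions 86581371 to 86695953, minus strand). It had 33.3, 37.0 and 31.7 FPKM in Med23KO libraries, against 23.8, 19.6 and 22.9 FPKM in Ctrl libraries, with no overlap. The mean was 154% of that in Ctrl. The difference of 0.60 on the log2 scale (SE 0.112) passed (limma adjusted p = 0.0378). With 1 library left out it passed in 1 of 6 fits, that without Med23KO replicate 3 (adjusted p = 0.0192), and reached an adjusted p of 0.194 without Med23KO replicate 2. It also missed the threshold with all genes kept (limma adjusted p = 0.0660) or with no mean-variance trend (limma adjusted p = 0.0515).

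Of 12 genes of sterol uptake and movement, 0 passed the limma test, 6 had an unadjusted p under 0.05 (5 higher, 1 lower), against 19.7% of all tested genes. The authors' deposited table called 4 by Cuffdiff (Vldlr, Npc1 and Gramd1b higher, Soat1 lower), against 15.7% of the genes it tested. Soat1, which esterifies cholesterol for storage, had 44.0, 47.4 and 51.9 FPKM in Med23KO libraries, against 61.0, 78.5 and 74.2 FPKM in Ctrl libraries (log2 fold change -0.56, limma adjusted p = 0.0584). Vldlr, a lipoprotein receptor, had 5.24, 4.86 and 2.95 FPKM in Med23KO libraries, against 2.24, 1.76 and 2.31 FPKM in Ctrl libraries (log2 fold change 0.76, limma adjusted p = 0.0874). Neither pair of groups overlapped, as in 24.7% of all tested genes. Both passed without Med23KO replicate 3 (limma adjusted p = 0.0263 for Soat1 and 0.0109 for Vldlr), where 9.27% of all tested genes did. They also passed with library weights (0.00934 and 0.0103), where 13.8% of all tested genes did, and Vldlr with equal medians (0.0443). Over the other libraries left out, neither passed, and the limma adjusted p ran up to 0.236 for Soat1 and 0.311 for Vldlr. Among 9 genes of the isoprenoid branch, 0 passed the limma test. At an unadjusted p under 0.05 there were 2, both lower, close to the share of 19.7% of all tested genes. Cuffdiff in the authors' deposited table called 0, against 15.7% of the genes it tested. The 2 lower genes were Pdss1 and Pdss2, whose products make the side chain of ubiquinone. Their log2 fold changes were -0.33 and -0.30 (limma adjusted p = 0.180 and 0.183).

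Markers of other cell states were read in the same libraries. Of 7 tested markers of differentiating myocytes, 3 rose (Actc1, Tnnc1 and Mef2c) and 0 fell, where 1.49% of all tested genes rose and 1.42% fell. At an unadjusted p under 0.05, 6 were higher and 0 lower, against 19.7% of all tested genes in either direction. The mean of Tnnt2 was 74.4% of that in Ctrl, and its groups overlapped (limma adjusted p = 0.432). Cuffdiff in the authors' deposited table called 7 of the 9 listed higher and 1 lower, against 8.61% and 7.04% of the genes it tested. The summed level of the 9 was 226 to 252 FPKM in Med23KO libraries and 102 to 131 FPKM in Ctrl libraries. Of 8 fibro-adipogenic and fibroblast markers, 0 passed the limma test. At an unadjusted p under 0.05 there were 3, all higher, against 19.7% of all tested genes in either direction. The authors' deposited table called 5 higher, against 8.61% of the genes it tested. The sum of the 8 was 222 to 355 FPKM in Med23KO libraries and 163 to 226 FPKM in Ctrl libraries, which overlap. Col3a1 made up most of it, with 183 to 286 FPKM in Med23KO libraries and 138 to 182 FPKM in Ctrl libraries. Of the 6 adipocyte markers, Cidec and Lep were at 0 in every library, and Adipoq and Plin1 did not exceed 0.0762 and 0.0649 FPKM. The Schwann cell, endothelial and immune markers summed to at most 1.84, 6.07 and 2.93 FPKM in any library. The part of the differentiation and fibroblast markers in the differences of Acaca and Me1 was not tested. In such bulk RNA, fewer cells of a type and less RNA per cell cannot be told apart.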

How the data were processed

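RNA from 6 libraries of cultured mouse muscle stem cells was poly(A)-selected and made into strand-specific libraries, per the labels' protocols. Per the submitters' processing notes, FastQC, cutadapt, STAR and Cuffdiff were used with mm10; versions, annotation and strand setting are in none of these sources. The authors deposited FPKM per library and per group, and Cuffdiff p-values and q-values with a test score, per the file headers; the score was not used. Of 12368 rows with an Ensembl identifier alone, 12316 were named from a table of gene identifiers and symbols; gene coordinates are those of GENCODE vM21.

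FPKM are not counts, so log2(FPKM + 1) of the 12336 genes averaging 1 FPKM or more was tested with limma 3.58.1 (R 4.3.3; mean-variance trend, genotype as the single factor, two-sided, Benjamini-Hochberg over all tested genes, threshold 0.05). The depth is unknown: at most 23.1% of genes under 0.1 FPKM in a pair of libraries shared 1 ratio (tolerance 0.03, log2), so fragments could not be recovered, and precision rests on 3 libraries a group. The fit was tested on simulated data, with changes placed in genes of higher level. It recovered 34.3% of 1.5-fold and 73.1% of 2-fold changes, so most changes of 1.5-fold were missed.

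The members and lists were chosen with earlier results of these data known. The text names Med23, all 28 members, the called genes of 6 related lists (otherwise the 2 smallest adjusted p of a list) and markers; other genes, such as Scap and those Cuffdiff called, were chosen after their values were seen. Alternatives covered the pseudocount, filter, scaling, variance model, library weights, replicate block, each library left out and the authors' q-values. Promoter sequences are RefSeq's (GRCm38.p6); 6 members had none. Some genes of these pathways are not reported here.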

Additional observations from a re-analysis of the deposited data

How the results depend on the processing

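The number of genes called depended strongly on the setting. It was 359 as reported (184 higher, 175 lower), 157 without a filter on low values, 568 with equal medians (363 higher, 205 lower), 1700 with library weights, whose estimation stopped before convergence, 2054 by the authors' q-values and 13 to 1144 with 1 library left out, highest without Med23KO replicate 3 and lowest without Med23KO replicate 2. Of the 28 members 0 were called as reported, 1 with library weights, 1 by the authors' q-values and 0 to 1 with 1 library left out; each time it was Acaca. The median of the sterol enzymes was 0.01 as reported, -0.10 with library weights and -0.07 to 0.07 with 1 library left out. That of the fatty acid enzymes stayed between -0.20 and -0.10 in each setting run, and the difference of the medians between 0.06 and 0.22.

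Whether replicate numbers pair the libraries is not given by the labels and was not settled here. Deviations from the group means of same-numbered libraries correlated at 0.437, -0.016 and 0.563 over 12336 genes, for replicates 1, 2 and 3. Med23KO replicate 2 correlated best with Ctrl replicate 1 (0.337). Ctrl replicate 2 correlated near 0 with each Med23KO library (-0.035, -0.016 and 0.040), so number 2 could not decide it. With the number as a replicate block, 2757 genes (22.3%) and 3 members were called: Acaca, Fasn and Acly (limma adjusted p = 0.0145, 0.0438 and 0.0456). The block also brought Soat1, Vldlr, Pdss1, Pdss2, Acsl1, Gpam, Hadhb and Acadm past the threshold (limma adjusted p from 0.00345 to 0.0447).

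Genes near 0 changed sign in some settings, and 0 of those that did were called in any. With library weights the log2 fold change was -0.131 for Hmgcs1, -0.235 for Fdps, -0.316 for Tm7sf2, -0.094 for Msmo1, -0.172 for Ebp, -0.072 for Sc5d, 0.070 for Scd1 and 0.069 for Elovl6. It was -0.039 for Tm7sf2 under quantile normalization and 0.014 for Lss with equal medians. With 1 library left out it ran from -0.089 to 0.075 for Hmgcs1, -0.002 to 0.194 for Pmvk, -0.291 to 0.068 for Idi1, -0.130 to 0.149 for Fdps, -0.143 to 0.032 for Sqle, -0.040 to 0.041 for Lss and -0.223 to 0.010 for Cyp51. The range was -0.087 to 0.317 for Tm7sf2, -0.228 to 0.015 for Nsdhl, -0.072 to 0.123 for Ebp, -0.026 to 0.097 for Sc5d, -0.106 to 0.275 for Srebf1, -0.266 to 0.088 for Srebf2 and -0.089 to 0.052 for Stard4. It was -0.159 to 0.089 for Scd1, -0.086 to 0.047 for Elovl6, -0.018 to 0.212 for Lpcat3 and -0.243 to 0.090 for Apoe. The cause of these changes was not tested.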

Other observations

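Genes that use or store fatty acids were not part of the comparison of both branches. Of 11 acyl-CoA synthetase and glycerolipid synthesis genes, 0 passed the limma test, 4 had an unadjusted p under 0.05 (3 higher, 1 lower), against 19.7% of all tested genes. The authors' deposited table called 5 by Cuffdiff (Acsl1, Acsl4, Gpam and Lpin1 higher, Acsl5 lower), against 15.7% of the genes it tested. Acsl1, which activates long-chain fatty acids, had 20.3, 17.6 and 9.74 FPKM in Med23KO libraries, against 8.22, 6.50 and 5.43 FPKM in Ctrl libraries. The groups did not overlap, and the difference of 1.09 on the log2 scale (SE 0.263) did not pass (limma adjusted p = 0.0743). It passed without Med23KO replicate 3 (1.38, limma adjusted p = 0.00507), under quantile normalization (0.0415), with equal medians (0.0375) and with library weights (0.00817). Gpam, which starts glycerolipid synthesis, had a log2 fold change of 0.54 (limma adjusted p = 0.149), and passed without Med23KO replicate 3 (0.0361) and with library weights (0.0248). These 2 settings called 9.27% and 13.8% of all tested genes. Over the other libraries left out, neither gene passed, and the limma adjusted p ran up to 0.279 for Acsl1 and 0.426 for Gpam.

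Of 9 tested genes of fatty acid oxidation, 0 passed the limma test. At an unadjusted p under 0.05 there were 2, Hadhb higher and Acadm lower, close to the share of 19.7% of all tested genes. Cuffdiff in the authors' deposited table called Cpt1b, which was below the filter here, and 15.7% of the genes it tested. Hadhb and Acadm had log2 fold changes of 0.31 and -0.28 (limma adjusted p = 0.153 and 0.219). Hadhb passed with library weights (limma adjusted p = 0.0387), where 13.8% of all tested genes did. Of 6 genes of the LXR pathway and sterol efflux, 3 were tested, and 0 passed the limma test, had an unadjusted p under 0.05 or were called by Cuffdiff in the authors' deposited table. Of these, Lpcat3 and Apoe had log2 fold changes of 0.06 and -0.03. The efflux transporter genes Abca1 and Abcg1 did not exceed 0.639 and 0.260 FPKM in any library.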
